A study of Mus musculus with 88 samples.

Results

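Acod1, also listed as Irg1, encodes aconitate decarboxylase 1, the enzyme that makes itaconate from the Krebs cycle intermediate cis-aconitate. Itaconate is a metabolite of activated myeloid cells. It slows succinate dehydrogenase, modifies cysteines of proteins such as the Nrf2 inhibitor Keap1, and so ties inflammatory signalling to mitochondrial metabolism. Macrophages switch the gene on after toll-like receptor, tumor necrosis factor and interferon signals, and neutrophils can express it too.

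Acod1 (Entrez gene 16365) was taken by its symbol and is 1 of 17097 genes measured. The array held 1 probe set annotated to it alone, out of 45037 probe sets tested, and all values for the gene come from that probe set. Acod1 was chosen because earlier results of these data had shown it among the genes most raised by pristane, so its own pristane differences are given as a description, with no test. Whole blood RNA of female SNF1 mice was profiled on 88 arrays, each counted here as 1 mouse. The labels do not say whether a mouse was bled at more than 1 week. SNF1 is the F1 hybrid of SWR and NZB, a cross that develops lupus nephritis spontaneously. The mice formed 11 groups of 8. In 5 groups, blood was taken 2, 4, 8, 12 or 14 weeks after an intraperitoneal injection of pristane, a hydrocarbon oil that accelerates lupus-like disease. The 5 untreated groups carried the same week labels and, by the methods of the study, matched the treated mice in age. The week labels of the treated and age-matched untreated groups count from the injection and are not ages. The last group was untreated mice labelled week 36 with spontaneous disease, where 36 weeks is an age and the animals had been selected by heavy proteinuria. No disease-free group of that age was analysed here, so age and disease cannot be told apart in that group.

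Values are log2 signals after robust multi-array averaging (RMA), on which 1 unit is a doubling. The median of all values was 3.89, array medians ran from 3.78 to 4.01 and correlations between arrays from 0.900 to 0.994. The interquartile range of an array, a measure of how spread its signals were, averaged 3.53 at untreated week 14 and 3.45 in spontaneous disease, against 3.13 to 3.30 in the other 9 groups. Markers of blood cells were present: all 16 mature neutrophil genes, all 13 monocyte genes, all 7 platelet genes and 5 of 6 erythroid genes lay above the median of all values. Of 12 tissue macrophage genes only 2 did, the lowest being Vsig4 at 1.84. The pristane week 4 array of replicate 1 stood apart from its group in 3 of 4 scores. It had an interferon score, the mean signal of 25 interferon-response genes, of 6.26, within the untreated week 4 range of 5.96 to 6.57, and the values at week 4, the models with a score and the pooled correlations are given with and without it. Arrays that stood apart in a single score in 3 other groups are named at the end.

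The gene lies on chromosome 14 of GRCm38.p6, plus strand, at chr14:103047012-103056573. The 250 bases before its start in the RefSeq promoter table, at chr14:103046762-103047011, are shown as a description, with short motifs marked. Whether Acod1 shares regulation with the genes that moved with it was not tested. Capitals mark, in order, GGAAGT, GGAAATTCC, AANNGAAA and TATAAA:

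Acod1 promoter: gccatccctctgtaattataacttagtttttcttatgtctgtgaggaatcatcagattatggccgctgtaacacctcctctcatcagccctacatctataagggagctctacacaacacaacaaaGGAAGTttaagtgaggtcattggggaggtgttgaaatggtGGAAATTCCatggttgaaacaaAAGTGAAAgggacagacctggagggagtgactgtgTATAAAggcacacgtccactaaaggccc

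The TATAAA match, the letters of a TATA box, lay 28 to 23 bases before the start, and 12.97% of the 27025 promoters in the table held one. AANNGAAA, the core bound by interferon regulatory factors, lay 63 to 56 bases before the start and occurred in 21.6% of promoters. GGAAATTCC, an NF-kB site of the RelA type, lay 85 to 77 bases before the start and occurred in 0.292% of promoters. GGAAGT, the core of ETS factors such as PU.1, lay 125 to 120 bases before the start and occurred in 19.99% of promoters. TTCNNNGAA, TGANTCA and TTGCGCAA, the letters of the interferon-gamma activated site, AP-1 and C/EBP, had no match in this window and occurred in 7.18%, 6.87% and 0.17% of promoters. Both strands were searched, the matches do not overlap, and the motifs were chosen with the sequence in view. A match is a description of letters and was not tested as a site.

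In untreated mice the Acod1 signal was near the middle of the array at weeks 2 and 4, and after pristane it was far up the range, at the 90.2nd to 93.1st percentile of probe sets. At week 2 the untreated mice ran from 3.53 over a median of 3.98 to 5.02, and the pristane mice from 6.97 over 7.54 to 8.25. Every pristane mouse lay above every untreated mouse. At week 4 the untreated mice ran from 3.47 over 4.16 to 5.00, and the pristane mice from 3.78 over 8.23 to 9.82. Here 7 of 8 pristane mice lay above all untreated mice, and the exception was replicate 1, at 3.78. At week 8 the untreated mice ran from 3.57 over 5.36 to 8.66, and the pristane mice from 7.02 over 7.96 to 9.48. The groups overlapped, with 2 untreated mice, at 8.02 and 8.66, above the lowest pristane mouse. At week 12 the untreated mice ran from 3.49 over 4.51 to 5.78, and the pristane mice from 6.58 over 8.12 to 8.74. At week 14 the untreated mice ran from 4.79 over 6.86 to 7.34, and the pristane mice from 7.56 over 8.24 to 8.79. The groups did not overlap at either week. The mice with spontaneous disease ran from 5.15 over 6.49 to 8.55.

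**Figure D1:**
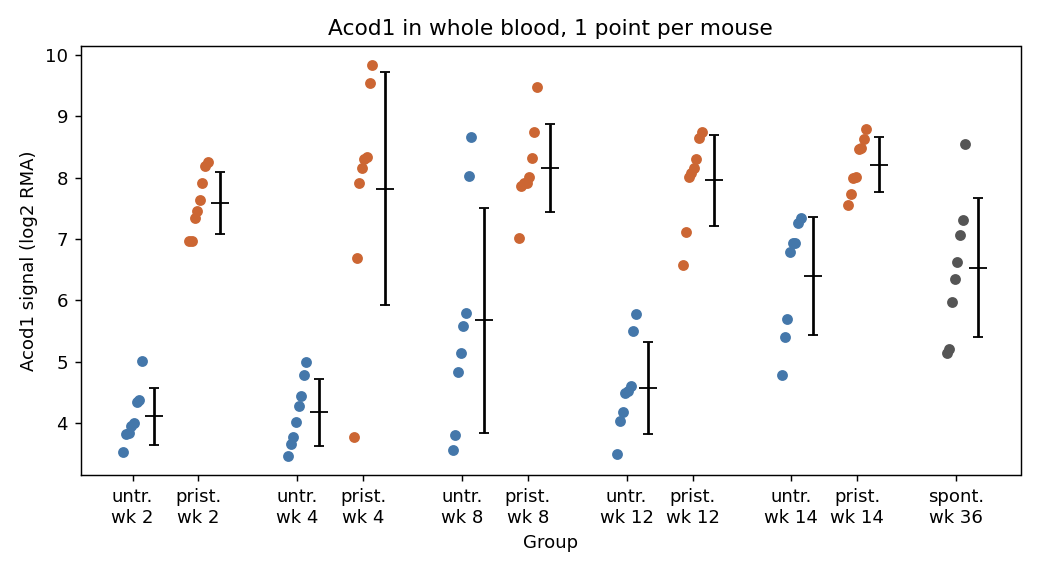
Acod1 signal (log2 RMA, vertical axis) in each of the 8 mice of the 11 groups (points; untr., untreated; prist., pristane; spont., spontaneous disease), with the group mean and SD beside them. Pristane means stay between 7.59 and 8.21, while untreated means run from 4.12 at week 2 to 6.39 at week 14, and 1 pristane mouse of week 4 sits at 3.78.

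The order of the group means was untreated week 2 (4.12 ± 0.46, SD, n = 8), untreated week 4 (4.18 ± 0.55), untreated week 12 (4.58 ± 0.75), untreated week 8 (5.68 ± 1.83), untreated week 14 (6.39 ± 0.96), spontaneous disease (6.53 ± 1.13), then pristane weeks 2 (7.59 ± 0.50), 4 (7.82 ± 1.90), 12 (7.95 ± 0.74), 8 (8.15 ± 0.72) and 14 (8.21 ± 0.45). Neighbours in this order differed by less than their pooled SD, with 1 exception: pristane week 2 exceeded spontaneous disease by 1.06 against a pooled SD of 0.87, and even there 3 mice with spontaneous disease lay above the lowest pristane mouse. The place of pristane week 4 rested on replicate 1: without it the mean was 8.39 ± 1.05 (SD, n = 7), the highest of all groups. The signal of untreated mice at week 2 was at the 52.6th percentile of probe sets and that of pristane mice at week 14 at the 93.1st. No detection call came with the values used here, so whether the gene was detected at all at 4.12 cannot be stated, and folds from such a level are open to compression.

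The difference between pristane and untreated mice was 3.47 at week 2 (11.1-fold, 95% interval 5.58 to 22.1), 3.63 at week 4 (12.4-fold, 6.24 to 24.7), 2.48 at week 8 (5.57-fold, 2.80 to 11.1), 3.37 at week 12 (10.4-fold, 5.21 to 20.6) and 1.82 at week 14 (3.52-fold, 1.77 to 7.01). Without replicate 1 of the pristane group, the week 4 difference was 4.21 (18.5-fold). Ranked by rise among 17097 genes, Acod1 was 6th, 1st, 25th, 2nd and 46th at these weeks, and 1st at week 4 also without that mouse. These values chose the gene and are not evidence for it. The smaller difference at week 14 came with a higher untreated level, not a lower pristane level. Set against the mean of all untreated mice, 4.99, the differences were 2.60, 2.83, 3.17, 2.96 and 3.22, and the comparisons then share their controls.

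The untreated mice can be compared with each other, but they are also the controls above. A low untreated level at week 2 or 12 favours the pristane difference of that week and also a rise from that week to week 14. The p-values of these comparisons are therefore not independent of the choice of the gene. Acod1 rose from untreated week 2 to week 14 by 2.28 (4.85-fold, 95% interval 2.44 to 9.65, limma adjusted p = 0.0011), and 7 of 8 mice at week 14 lay above every mouse of week 2. In that comparison 24.3% of genes passed the test in either direction, 10% upward and 14.3% downward, and Acod1 was 10th by rise. Week 12 against week 2 gave 0.46 (95% interval -0.53 to 1.46, limma adjusted p = 0.743), with 0.205% of genes passing. Week 14 against week 12 gave 1.81 (0.82 to 2.81), which missed the threshold (limma adjusted p = 0.0763), with 0.0702% of genes passing. The call for week 14 against week 2 was lost with the interquartile range of each array in the model (1.85, limma adjusted p = 0.0527).

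Monocyte genes, and part of the interferon genes, moved with the untreated rise. Of 13 monocyte genes, 10 rose and none fell from untreated week 2 to week 14, with a median difference of 1.10 against -0.07 over all genes, and the monocyte score went from 6.90 ± 0.18 to 8.07 ± 0.40 (SD, n = 8), with no overlap of the mice (highest 7.10, lowest 7.50). With the monocyte score in the model the Acod1 difference was 0.68 (95% interval -0.37 to 1.73, limma adjusted p = 0.686), and the call was lost. Since the monocyte scores of these groups did not overlap, that value carries the slope seen within groups across a gap. Inside untreated weeks 2 and 14, r of Acod1 with the monocyte score was 0.58 and 0.35, and neither passed. With the mature neutrophil score in the model the Acod1 difference was 1.54 (limma adjusted p = 0.00736), and with the interferon score 1.46 (limma adjusted p = 0.0102). Of 25 interferon genes 9 rose and 1 fell, with a median difference of 0.49. Of 16 mature neutrophil genes 3 rose and none fell, with a median difference of 0.28. Over all genes 10% rose and 14.3% fell. Erythroid genes went the other way, 5 of 6 falling. At untreated week 8 both mice with high Acod1 also had the highest monocyte scores of their group, 8.66 and 8.54, against 7.14 to 7.90 in the other mice. In whole blood, fewer cells of a type and less RNA per cell cannot be told apart. What part these cell types or the interferon response had in the Acod1 values was not tested.

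Spontaneous disease at 36 weeks of age did not separate from untreated week 14, a label that counts from the injection of the matched mice. The difference was 0.14 (95% interval -0.86 to 1.13, limma adjusted p = 0.9999), an interval that leaves room for a change of up to 2.19-fold upward, and 7 untreated mice lay above the lowest diseased mouse. In that comparison 0% of genes passed, while 594 had an unadjusted p under 0.05. Against the untreated mice of all weeks together, the diseased mice were higher by 1.54 (2.91-fold, 95% interval 1.71 to 4.96, limma adjusted p = 0.026), where 1.41% of genes passed. The untreated mean was 6.39 at week 14 and 4.99 over all weeks. Those untreated mice are also the controls of the pristane differences that chose the gene. A low untreated level favours a difference in both, so the p-value against all weeks is not independent of that choice.

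Interferon-response and mature neutrophil genes were raised in the same pristane groups. Of 25 interferon genes, 21, 20, 18, 20 and 20 rose at weeks 2, 4, 8, 12 and 14 and none fell, and of 16 mature neutrophil genes 15, 15, 14, 16 and 13 rose and none fell. Over all genes, 2.29%, 2.18%, 1.85%, 2.7% and 12.7% rose and 1.29%, 0.801%, 0.778%, 1.06% and 9.72% fell at those weeks. Acod1 had a larger difference than 20, 25, 18, 24 and 14 of the interferon genes and than 16, 16, 12, 16 and 11 of the neutrophil genes. With replicate 1 of pristane week 4 left out, 21 interferon and 16 neutrophil genes rose at week 4, all with a smaller difference than Acod1. Since Acod1 was chosen for its rise after pristane, its place among these genes follows from that choice and is a description. Other blood cell genes moved in the same comparisons. Of 14 immature neutrophil granule genes 8, 10, 12, 11 and 12 rose, and at week 14 all 7 platelet genes (median difference 1.08) and 4 of 6 erythroid genes (median difference 1.11) rose while 3 of 5 NK cell genes fell and 1 rose. Their part in the Acod1 differences was not tested. The interferon score was 6.21 to 6.75 in the untreated groups and 8.08 to 8.39 in the pristane groups, and the mature neutrophil score 7.42 to 7.90 and 8.96 to 9.41.

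With the mature neutrophil score in the model, the pristane differences of Acod1 became 0.96, 0.89, 0.017, 1.06 and -0.33 at weeks 2, 4, 8, 12 and 14. With the interferon score they became -0.61, 0.17, -0.53, -0.10 and -1.03. With the monocyte score they were 3.22, 3.18, 2.91, 2.73 and 1.94. Without replicate 1 of pristane week 4 they were 1.33, 1.54, 0.38, 1.40 and -0.013 with the neutrophil score, -0.17, 0.68, -0.21, 0.27 and -0.72 with the interferon score, and 3.23, 3.74, 2.88, 2.77 and 1.93 with the monocyte score. Apart from replicate 1 of pristane week 4, the interferon scores of pristane mice began at 7.78 while those of untreated mice ended at 7.57, so the values with the interferon score carry the slope seen within groups across a gap. With the same mouse set aside, the mature neutrophil scores overlapped in part, with untreated mice up to 8.62 and pristane mice down to 8.17, and the monocyte scores overlapped too. The adjusted values are given as a description.

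**Figure D2:**
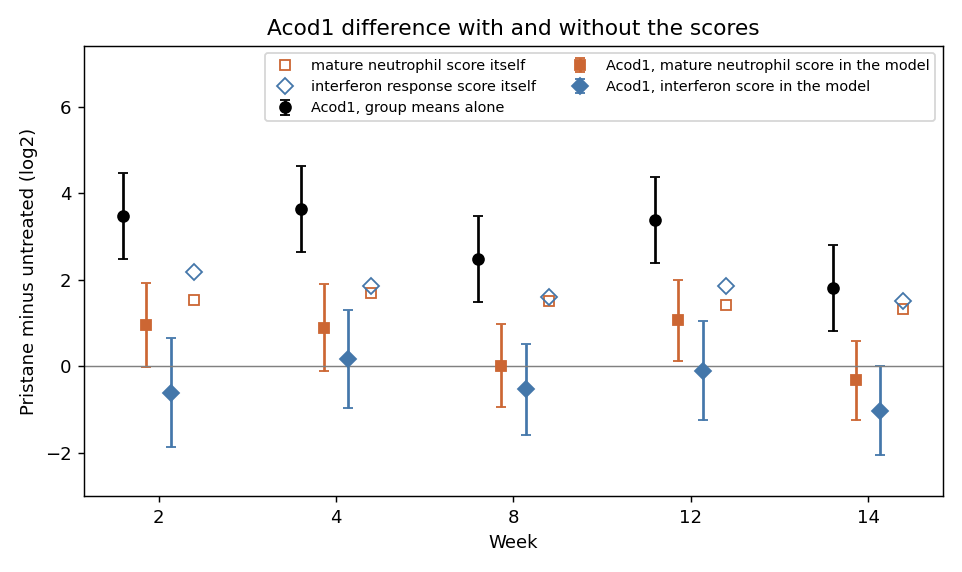
Pristane minus untreated difference of Acod1 (log2, vertical axis) by week, from the group means alone (black, 95% intervals) and with the mature neutrophil or interferon score in the model (filled squares and diamonds, 95% intervals); open symbols are the differences of the scores themselves. The black points lie between 1.82 and 3.63, and with a score in the model they lie between -1.03 and 1.06.

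Whether Acod1 went with these genes from mouse to mouse was asked inside the groups, on the deviation of each mouse from its group mean, which the pristane differences do not enter. Pooled over the 88 mice, Acod1 went with the mature neutrophil score at Pearson r = 0.67 (permutation p = 1e-05, the smallest that the permutations can give) and Spearman rho = 0.63 (permutation p = 1e-05). With the interferon score r was 0.67 (permutation p = 1e-05) and rho 0.51 (permutation p = 2e-05). All 4 scores computed had an adjusted p of at most 0.00014. Without the 2 mice farthest from the median score, r was 0.59 for the neutrophil and 0.50 for the interferon score, and without replicate 1 of pristane week 4 it was 0.57 and 0.54. With the other score taken out, r was 0.45 for the neutrophil and 0.44 for the interferon score. Immature neutrophil granule and monocyte scores gave r = 0.51 and 0.51.

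**Figure D3:**
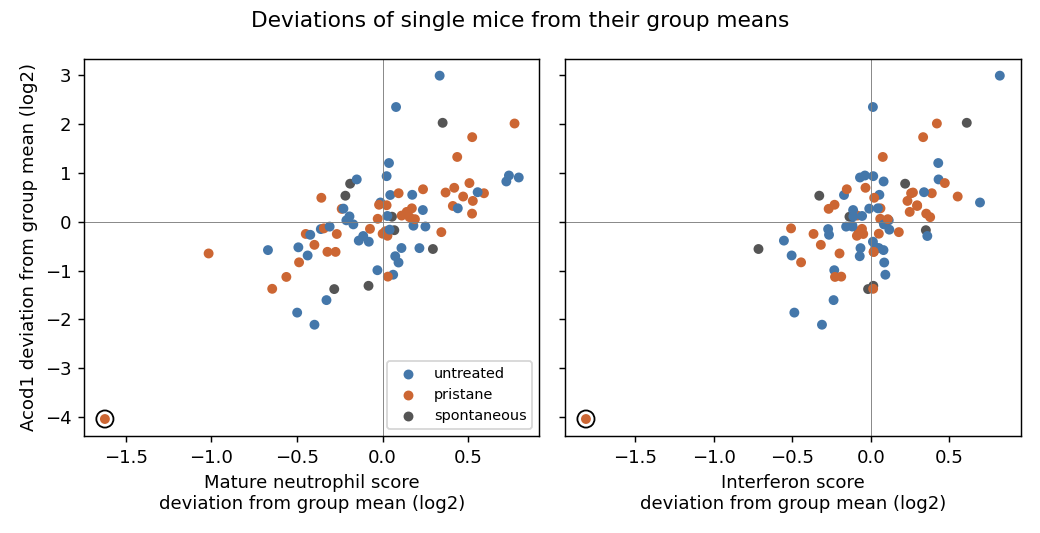
Deviation of Acod1 from the group mean (log2, vertical axis) against the deviation of the mature neutrophil score (left) and the interferon score (right) for the 88 mice, coloured by treatment. The circled point is replicate 1 of pristane week 4, and r is 0.67 in both panels with it and 0.57 (left) and 0.54 (right) without it.

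Within single groups of 8, r with the neutrophil score ran from -0.09 at untreated week 12 to 0.97 at pristane week 12, with a median of 0.77, and was positive in 10 of 11 groups. In 7 groups the raw exact permutation p was under the threshold. After adjustment over 44 tests, 2 remained by r: pristane week 12 (r = 0.97, exact permutation adjusted p = 0.0125) and untreated week 2 (r = 0.94, exact permutation adjusted p = 0.0125). By rank neither passed (rho = 0.93 and 0.88, exact permutation adjusted p = 0.0982 and 0.159). Without the 2 farthest mice these r were 0.89 and 0.84, while r fell from 0.92 to 0.45 at pristane week 4, from 0.69 to -0.24 at untreated week 4 and from 0.42 to 0.11 in spontaneous disease. For the interferon score r ran from -0.26 at untreated week 2 to 0.92 at pristane week 4, with a median of 0.49, positive in 10 of 11 groups, and no group passed after adjustment. The 0.92 at pristane week 4 rested on the farthest mice, since r was 0.18 without them. The monocyte score passed by r in 1 group, untreated week 8 (r = 0.94, exact permutation adjusted p = 0.0196, and r = 0.62 without the farthest mice). By rank it did not pass there (rho = 0.81, exact permutation adjusted p = 0.18). Whether the neutrophil and interferon relations differ from each other was not tested.

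Single genes showed the same spread. All 16 mature neutrophil genes had a positive r with Acod1 (median 0.48, from 0.33 to 0.72), as had 24 of 25 interferon genes (median 0.46, from -0.25 to 0.69), against a median of -0.02 and a 5th to 95th percentile of -0.23 to 0.30 over 17096 genes. The highest neutrophil genes were Fpr2, a formyl peptide receptor (0.72), Pglyrp1, a granule protein that binds peptidoglycan (0.64), and Mcemp1 (0.61). The lowest were Cxcr2, the chemokine receptor of circulating neutrophils (0.33), Stfa3 (0.36) and S100a9, a calprotectin subunit (0.39). Among interferon genes, the oligoadenylate synthetase family members Oasl2 (0.69), Oas2 (0.66) and Oas1g (0.64) were highest. Rsad2, the antiviral protein viperin (-0.25), Ifit2 (0.12) and Oas3 (0.19) were lowest. Of 13 monocyte genes 12 had a positive r (median 0.32), as had all 14 immature neutrophil granule genes (median 0.27). Without replicate 1 of pristane week 4 the medians were 0.39 for neutrophil genes (from 0.18 to 0.67, 16 of 16 positive) and 0.37 for interferon genes (from -0.39 to 0.58, 23 of 25 positive), against a 5th to 95th percentile of -0.29 to 0.32 over all genes. The monocyte genes then had a median of 0.39 (12 of 13 positive), like the neutrophil genes, and the immature granule genes 0.13. These correlations are across mice of shared arrays and carry no test.

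**Figure D4:**
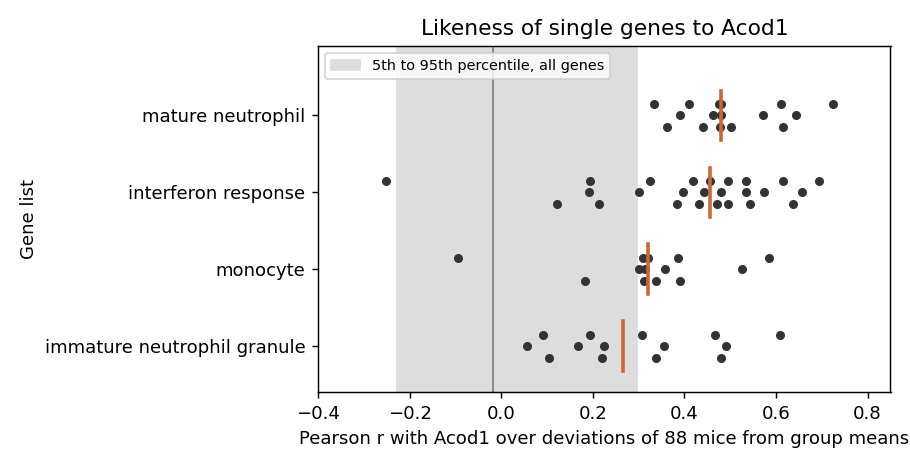
Pearson r of each listed gene with Acod1 (horizontal axis) over deviations of 88 mice from group means, by gene list; points are genes, orange bars list medians and the grey band the 5th to 95th percentile of all genes (-0.23 to 0.30). With all mice included, the 16 mature neutrophil genes lie above the band, and Rsad2, at -0.25, is the interferon gene below 0.

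The genes whose pattern was most like Acod1 over the deviations of the 88 mice were Fpr2 (r = 0.72), Upp1, which is uridine phosphorylase (0.72), AI839979 (0.71), the lipoprotein receptor Tlr2 (0.70), Oasl2 (0.69), the antiviral membrane protein Ifitm3 (0.68), haptoglobin Hp (0.68), the chitinase-like Chil1 (0.67), Clec4e, the C-type lectin Mincle (0.67), and the glutathione transferase Mgst1 (0.67). When replicate 1 of pristane week 4 was left out, Upp1, Tlr2, Fpr2, AI839979 and Chil1 were still among the 10 highest, at 0.68, 0.68, 0.67, 0.67 and 0.64, and the other 5 were not. Over the 11 group means the order was Clec4e (0.993), B4galt6 (0.990), Il13ra1 (0.987), Ifitm3 (0.987), Hp (0.986), Ifih1 (0.985), Wfdc18 (0.984), Mcemp1 (0.982), Fam217b (0.982) and Anxa2 (0.982). Clec4e, Ifitm3 and Hp stood in both orders. The group means fall into pristane and other groups, so a high value there says mainly that a gene separated them. Acod1, chosen for its rise, had larger pristane differences than each of these genes at every week except against Oasl2. The differences of Oasl2, larger at weeks 2, 8 and 14, were 4.07, 3.52, 2.93, 3.37 and 2.75 at weeks 2, 4, 8, 12 and 14.

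The genes around itaconate were described through 5 lists with 79 measured members. At weeks 2, 4, 8, 12 and 14, 6, 10, 3, 12 and 10 of them rose and 2, 0, 1, 1 and 10 fell, with median differences of 0.060, 0.075, -0.0047, 0.15 and 0.038. In percent, 7.59, 12.7, 3.80, 15.2 and 12.7 rose, beside the shares of all genes given above, and at week 14 the share of risers was that of all genes to 3 digits. The same shares of all genes stand beside the pristane counts of each list below. Without replicate 1 of pristane week 4, 11 of the 79 rose and 0 fell at week 4. In a fit of the week 4 groups alone 3 rose, at week 8 other settings gave 4 to 10 risers, and at week 14 2 fell with the interquartile range of each array in the model.

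Itaconate formation and handling covers the enzymes and carriers around cis-aconitate and succinate. Of 14 measured genes, 1 rose at week 2, none passed at weeks 4, 8 and 12, and at week 14 1 rose and 2 fell. Over all genes 2.29% rose and 1.29% fell at week 2, and 12.7% rose and 9.72% fell at week 14. With 14 genes these counts do not set the list apart from all genes. The riser at week 2 was Abcg2, a membrane exporter (0.95, limma adjusted p = 0.0218). At week 14 the mitochondrial dicarboxylate carrier Slc25a10 rose by 0.87 (limma adjusted p = 0.000481). At the same week the isocitrate dehydrogenase Idh2 fell by 0.61 (limma adjusted p = 0.0215) and Suclg2, a subunit of succinyl-CoA ligase, fell by 0.59 (limma adjusted p = 0.0479). Idh2 and Suclg2 had also risen from untreated week 2 to week 14, by 0.63 and 0.64.

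Of 14 measured genes for proteins reported as targets of itaconate, 0, 1, 0, 2 and 0 rose and 1, 0, 0, 0 and 2 fell. Sdha, the catalytic subunit of succinate dehydrogenase, fell by 0.75 at week 14 (9.18 ± 0.46 untreated, 8.44 ± 0.53 pristane, SD, limma adjusted p = 0.000835), with differences of -0.15 to 0.14 at the other weeks. Sdha had also risen from untreated week 2 to week 14, by 0.47 (limma adjusted p = 0.0413). Its pristane means at the other weeks were 8.75 to 8.94. At week 12, Tet2, a DNA demethylase, rose by 1.07 (limma adjusted p = 0.0106) and the inflammasome sensor Nlrp3 rose by 0.86 (limma adjusted p = 0.0253). Nfkbiz, which encodes I-kappa-B-zeta and was named after its values were seen, rose by 0.97 at week 4 (limma adjusted p = 0.0339). The kinase Jak1 fell by 0.63 at week 2 (limma adjusted p = 0.0233) and by 0.52 at week 14 (limma adjusted p = 0.0248). Nfe2l2, which encodes Nrf2, did not pass at any week (-0.24 to 0.72), and rose from untreated week 2 to week 14 by 1.07 (limma adjusted p = 0.0033). Keap1 was not analysed here.

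Of 11 measured target genes of Nrf2, 1, 2, 0, 2 and 2 rose and 0, 0, 0, 0 and 2 fell. Glutathione reductase, Gsr, rose at weeks 2, 4 and 12 by 0.65, 0.51 and 0.66 (limma adjusted p = 0.00347, 0.0348 and 0.00263). Heme oxygenase Hmox1 rose by 1.25 at week 4 (limma adjusted p = 0.0272), with 1.06 at week 12 (limma adjusted p = 0.077) and -0.03 at week 14. The cystine carrier Slc7a11 rose by 0.65 at week 12 (limma adjusted p = 0.00584), from a level of 2.04, well under the median of all values. Taldo1, the transaldolase of the pentose phosphate pathway, rose by 0.90 at week 14 (limma adjusted p = 6.83e-07), where its pristane level of 11.2 was like those of other weeks and its untreated level of 10.3 was lower.

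Of 20 measured receptors and factors known to induce Acod1, 1, 3, 0, 3 and 3 rose and 0, 0, 1, 0 and 2 fell. Tlr2 rose at weeks 2, 4 and 12 by 1.08, 1.46 and 1.21 (limma adjusted p = 0.0358, 0.00172 and 0.0138). Tnfrsf1a, a receptor of tumor necrosis factor, rose at weeks 4, 12 and 14 by 1.02, 0.83 and 0.93 (limma adjusted p = 0.00648, 0.0374 and 0.00315). Spi1, which encodes PU.1, rose by 0.96 at week 4 (limma adjusted p = 0.0188). The interferon-gamma receptor subunit Ifngr2 fell by 0.84 at week 14 (limma adjusted p = 0.00342). Irf1, a factor downstream of interferon-gamma, fell by 0.81 at week 8 (limma adjusted p = 0.0435), and the lipopolysaccharide receptor Tlr4 did not pass at any week (-0.18 to 0.35). From untreated week 2 to week 14, 8 of the 20 rose and 2 fell, beside 10% and 14.3% of all genes, Irf1 by 0.74 and Spi1 by 0.98 upward and Tlr4 by -0.37.

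Of 20 genes induced together with Acod1 in activated macrophages, 3, 4, 3, 5 and 4 rose and 1, 0, 0, 1 and 2 fell. Socs3, a feedback inhibitor of cytokine signalling, rose at weeks 2, 4, 12 and 14 by 1.90, 1.23, 1.18 and 0.85 (limma adjusted p = 3.5e-06, 0.00606, 0.00947 and 0.0268). Il1b rose at weeks 2, 4, 8 and 14 by 1.20, 0.78, 0.86 and 0.57 (limma adjusted p = 7.64e-05, 0.0249, 0.0105 and 0.0457) and reached 0.70 at week 12 without passing (limma adjusted p = 0.05004). The acute-phase protein Saa3 rose at weeks 4, 12 and 14 by 2.21, 1.78 and 1.52 (limma adjusted p = 0.000368, 0.00726 and 0.00673). Il6 rose by 0.66 at week 8 and 0.93 at week 12 (limma adjusted p = 0.0278 and 0.000437), both at group means of 2.62 or less, in the dim range. Il1rn, the interleukin-1 receptor antagonist, was named after its values were seen and rose at weeks 2, 4, 8 and 12 by 1.32, 1.38, 1.08 and 1.42 (limma adjusted p = 0.00352, 0.00195, 0.0301 and 0.00148). Tnf, the nitric oxide synthase Nos2 and the cyclooxygenase Ptgs2, hallmarks of the same macrophage response, did not pass at any week, with differences of 0.04 to 0.37, -0.13 to 0.46 and -0.06 to 0.34.

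**Figure D5:**
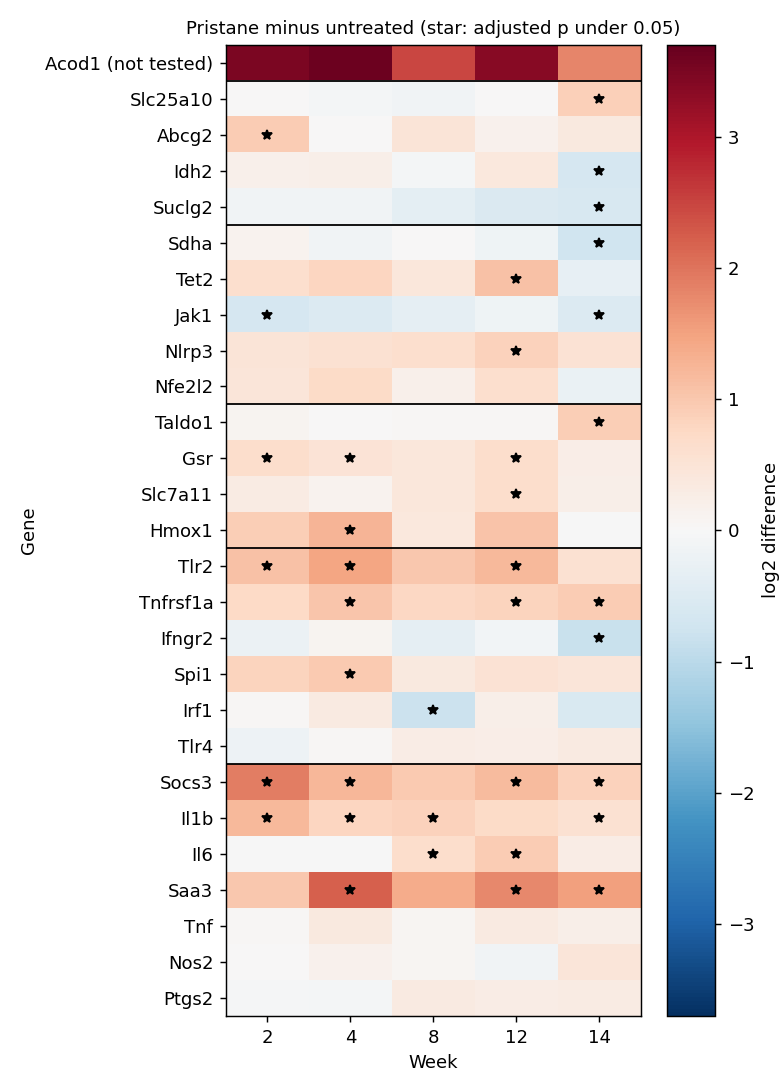
Pristane minus untreated difference (colour, log2) by week for Acod1 and the named genes of the 5 lists, in blocks from formation and handling at the top to genes induced with Acod1 at the bottom; stars mark a limma adjusted p under 0.05, and Acod1 was not tested. Acod1, chosen for its rise, reaches 3.63 and the next strongest cell, Saa3 at week 4, 2.21, while Tnf, Nos2, Ptgs2, Tlr4 and Nfe2l2 carry no star.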

How the data were processed

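Whole blood RNA of 88 samples was hybridised by the authors to Affymetrix HT-MG-430 PM arrays. The deposited values are log2 signals that the authors normalized with RMA. RMA corrects background, normalizes across arrays and summarises the probes of a set. Array medians ran from 3.78 to 4.01 and interquartile ranges from 2.75 to 3.79, so the arrays did not share 1 distribution. The sources used here name no plate, date or batch, and the number of arrays limits the precision. Groups came from the labels. The labels do not say more than that each sample is a mouse of a group, so p-values measure the spread between these samples.

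Of 45141 probe sets, 104 controls were left out. The probe table gave 28898 of the remaining 45037 probe sets 1 gene, 551 several genes and 15588 none. Symbols follow that table, of which 28689 IDs matched the mouse gene reference by Entrez ID. Where a gene had several probe sets of its own, the brightest on average stood for it, which gave 17097 genes. One linear model of 11 group means was fitted with limma 3.58.1 (R 4.3.3), leaving 77 residual and 5.81 prior degrees of freedom, and p-values were adjusted by Benjamini-Hochberg over the 45037 probe sets, with a threshold of 0.05 and no fold limit. Intervals are 95% from the moderated standard error. Scores are mean log2 signals of a gene list. Correlations used exact two-sided permutations within groups of 8 and 100000 permutations within groups for the pooled values (scipy 1.17.1, numpy 2.4.6). The scripts were tested on simulated data.

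Genes named were Acod1, the 10 most alike by each measure, the 4 members of each of the 5 lists with the largest absolute moderated t in any pristane comparison, the 3 highest and 3 lowest by r in the interferon and neutrophil lists, and Sdha, Nfe2l2, Keap1, Hmox1, Irf1, Tlr4, Il1b, Tnf, Nos2 and Ptgs2; an item of this rule is not reported here. The gene, the lists and the tests were chosen with earlier results of these data known. Alternatives were quantile normalization, array interquartile range, array weights, a replicate block, a filter on dim probe sets, only the groups compared, other controls, score covariates and leaving out each mouse in turn.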

Additional observations from a re-analysis of the deposited data

Results flagged for a closer look

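A mouse was singled out where the gap between the highest or lowest of the 8 mice and its nearest neighbour took up more of the range of the group than Dixon's 95% limit allows. Acod1 and the 4 scores were examined in 11 groups each, 55 in all, and 6 held such a mouse, where chance alone gives about 1 in 20. No group did for Acod1 itself. In pristane week 4, replicate 1 was lowest for the interferon score (6.26, next mouse 7.89), the mature neutrophil score (7.58, next 8.85) and the immature neutrophil granule score (4.70, next 6.15), and its Acod1 signal was 3.78. In untreated week 8, replicate 3 had the highest interferon score (7.57, next 6.84) and the highest Acod1 signal of its group (8.66). The immature granule score of untreated week 2 replicate 8 was 5.17 (next 4.50), and the monocyte score of spontaneous disease replicate 3 was 7.62 (next 8.11).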

How the results depend on the processing

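The pristane differences of Acod1 kept their direction under quantile normalization, the interquartile range of the arrays as a covariate, array weights, other controls and the fit of the groups compared, and moved toward 0 or reversed with the neutrophil or interferon score in the model. With the mature neutrophil score they were 0.96, 0.89, 0.017, 1.06 and -0.33 at weeks 2, 4, 8, 12 and 14, and with the interferon score -0.61, 0.17, -0.53, -0.10 and -1.03. Against all untreated mice the difference was 2.60 at week 2 and 3.22 at week 14, and week 14 against untreated week 12 gave 3.63. Leaving out each mouse in turn left every pristane difference between 1.59 and 4.21. Without replicate 1 of pristane week 4 as well, the differences at weeks 2, 4, 8, 12 and 14 were 1.33, 1.54, 0.38, 1.40 and -0.013 with the neutrophil score and -0.17, 0.68, -0.21, 0.27 and -0.72 with the interferon score. The cause of these shifts was not tested.

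Spontaneous disease minus untreated week 14 was -0.48 with the neutrophil score, -0.44 with the interferon score and -0.028 with the monocyte score (-0.39, -0.38 and -0.017 also without replicate 1 of pristane week 4), and 1.54 (limma adjusted p = 0.026) against all untreated mice. The value against all untreated mice shares its controls with the pristane differences that chose the gene. Without single mice the difference from untreated week 14 ran from -0.15 to 0.33 and never passed. Untreated week 12 minus week 2 was -0.16 with the monocyte score, and -0.12 also without that mouse. Untreated week 14 minus week 2 lost its call with the interquartile range (1.85, limma adjusted p = 0.0527) and with the monocyte score (0.68, limma adjusted p = 0.686, and 0.79, limma adjusted p = 0.549, also without that mouse). The monocyte scores of these groups did not overlap, so the value with that score is a description. Without single mice, untreated week 14 minus week 2 ran from 2.14 to 2.51 and passed each time. Untreated week 14 minus week 12 passed with array weights (1.66, limma adjusted p = 0.00853), with dim probe sets left out (1.81, limma adjusted p = 0.0472), in a fit of these groups alone (1.81, limma adjusted p = 0.0276) and without replicate 8 of untreated week 14 (1.91, limma adjusted p = 0.0422), and ran from 1.66 to 2.04 without single mice. The monocyte score as a covariate, the scores together with leaving out that mouse, and correlations without pristane week 4 and untreated week 8 (0.46 for the interferon and 0.60 for the neutrophil score), were chosen after seeing the data. The 2 pooled correlations stayed positive and past the threshold under all their alternatives, from 0.44 to 0.84.

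Counts of the 79 itaconate-related genes depended more on the fit. Falling genes at week 2 numbered 5 with quantile normalization, 5 with the interquartile range and 4 in a fit of these groups alone. At week 4, 3 rose in a fit of these groups alone, and 1 fell with the replicate block or with dim probe sets left out. At week 8 the risers numbered 8 with quantile normalization, 8 with the interquartile range, 6 with the replicate block, 10 with array weights, 6 with dim probe sets left out and 5 in a fit of these groups alone, and the fallers 3, 2 and 2 in the first 3 of these. At week 14 a fit of these groups alone gave 6 risers and 6 fallers, and the interquartile range 2 fallers.

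Samples with the same replicate number were not treated as pairs. Of 40 pristane and untreated pairs of the same week and number, 10 correlated above 0.1 (from -0.24 to 0.54). The mean correlation of deviations was 0.058 for the same number and -0.0073 for different numbers. Array interquartile range went in part with the number. Replicate 8 had the lowest at pristane weeks 2, 4 and 8 (2.78, 2.80 and 2.75), but replicate 7 at pristane week 14 (2.99). The labels used here do not say what the number stands for. With the replicate block the Acod1 differences were unchanged, for example 2.28 for untreated week 14 minus week 2 (limma adjusted p = 0.00118), and no Acod1 call changed. Other probe sets of Acod1 could not be tried, since the array has 1. Dim signals near the array median limit the folds.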
